A study of Homo sapiens with 8 samples.

Results

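ATF4 and 9 genes known as its targets (DDIT3, ATF3, TRIB3, SESN2, DDIT4, CHAC1, ASNS, PSAT1 and PHGDH) were examined in the RNA sequencing of Panc10.05, a long-established line of human pancreatic cancer cells, and of a line derived from it that resists indisulam. The 10 genes were found by symbol through their Ensembl identifiers among the 60675 genes counted. Indisulam is a molecular glue that recruits RBM39, a splicing factor, to the ubiquitin ligase of DCAF15 and so has it degraded. There were 8 libraries, 2 for each of 4 groups. Parental cells were untreated (parental untreated) or received 2 µM indisulam for 18 h (parental indisulam). Resistant cells, made by raising the dose over months, were either taken off the drug for a holiday of a week (resistant untreated) or kept on 2 µM throughout (resistant indisulam). The drug response of resistant cells therefore set continuous exposure against withdrawal, that of parental cells set a short first exposure against none, and the 2 are not matched in time. The study kept the resistant cells as a culture and does not state whether it was clonal. Titles and cell line labels give Panc10.05 and were followed, although the growth and treatment labels speak of A549.

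ATF4 is the main transcription factor of the integrated stress response. The kinases PERK, GCN2, PKR and HRI sense misfolded protein in the endoplasmic reticulum, lack of amino acids, double-stranded RNA or lack of heme and mitochondrial damage, and phosphorylate the translation factor eIF2. Most translation then drops, while the ATF4 mRNA, whose short upstream reading frames otherwise hold ribosomes back, is translated more. ATF4 protein pairs with other bZIP factors such as the C/EBP proteins and binds composite elements near genes for amino acid synthesis, amino acid transport, tRNA charging and stress-induced death. Much of the control of ATF4 thus acts on its translation, which mRNA counts do not measure.

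The composite element is shown for the members that carry it near their start, because it is the sequence through which ATF4 is known to act. The promoter windows of RefSeq (GRCh38.p14, 250 bases before to 50 after each annotated start) held all 10 genes in 16 windows. On both strands, the letters TGATGNAA were found in 3 genes, in 1 window each, all upstream of the RefSeq start of that window. In ASNS and CHAC1 the match lies inside the gene bounds given below, which begin farther upstream. The stretches around the matches are printed along the strand of the gene, with the match in capitals. They are chr7:97872444-97872501 (minus strand) for ASNS, chr1:212565191-212565248 (plus strand) for ATF3 and chr15:40953237-40953294 (plus strand) for CHAC1. The match itself begins 68 bases before the RefSeq start of its window in ASNS, 191 bases in ATF3 and 209 bases in CHAC1. In CHAC1 the letters lie on the opposite strand. ASNS and ATF3 have 2 windows each, and their other window held no match.
ASNS: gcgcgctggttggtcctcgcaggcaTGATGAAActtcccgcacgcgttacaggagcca
ATF3: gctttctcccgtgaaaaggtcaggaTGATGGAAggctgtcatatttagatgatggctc
CHAC1: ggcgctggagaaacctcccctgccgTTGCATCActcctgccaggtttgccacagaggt
Of 35116 windows of all genes, 1270 (3.62%) held these letters, and of 27305 genes 1217 (4.46%). The full cyclic AMP response element TGACGTCA was in none of the members' windows and in 1.85% of all windows. Its core TGACG, which the full element contains, was in the windows of ATF4 and ASNS and in 24.6% of all windows. A match is a description of these letters, and windows farther from the start were not searched.

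Libraries held 65266253 to 108002436 reads assigned to genes. Counting error was small for the members with many reads, and large for ASNS, CHAC1 and PHGDH. In the study the paired libraries are described as technical replicates, so p-values concern the spread between these libraries. RBM39 mRNA, the transcript of the drug target, was at 332 and 337 CPM (reads scaled to library size by the trimmed mean of M values, TMM) without and 716 and 731 CPM with the drug in parental libraries, and at 299 and 311 CPM without and 577 and 591 CPM with it in resistant ones, and was thus higher in every treated library than in every untreated one. The epithelial markers KRT8, KRT18, KRT19, EPCAM and CDH1 were all above 168 CPM in every library and MUC1 was between 3.95 and 19.2 CPM. The summed epithelial markers were 5574 to 5723 CPM in parental and 9315 to 10606 CPM in resistant libraries. Of 9 markers of other cell types, PTPRC, CD3E, CPA1 and INS had 0 reads. PECAM1, COL1A2, PRSS1 and SFTPC had at most 8 reads in a library, and COL1A1 was between 1.34 and 3.96 CPM. The 9 summed to 4.03 and 4.06 CPM in resistant indisulam libraries and to 1.35 to 1.91 CPM in the others. The part of these marker differences in the results was not tested. In bulk RNA, fewer cells of a kind and less RNA per cell cannot be told apart.

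Compared per length of the canonical transcript (RPKM, reads scaled to library size and transcript length), the members spanned several orders of magnitude and kept 1 order of mean levels in all 4 groups. In parental untreated cells ATF4 was at 210.0 RPKM, PSAT1 at 70.2, TRIB3 at 21.2, DDIT4 at 17.6, DDIT3 at 14.1, ATF3 at 7.40, SESN2 at 3.36, CHAC1 at 0.812, ASNS at 0.446 and PHGDH at 0.00251 RPKM. In resistant indisulam cells the levels ran from 241 RPKM for ATF4 and 44.3 RPKM for PSAT1 to 0.292 ± 0.0437 RPKM for ASNS and 0.228 ± 0.0706 RPKM for PHGDH (SD, n = 2). The last 2 were the neighbours that did not differ beyond their spread, in both resistant groups.

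**Figure D1:**
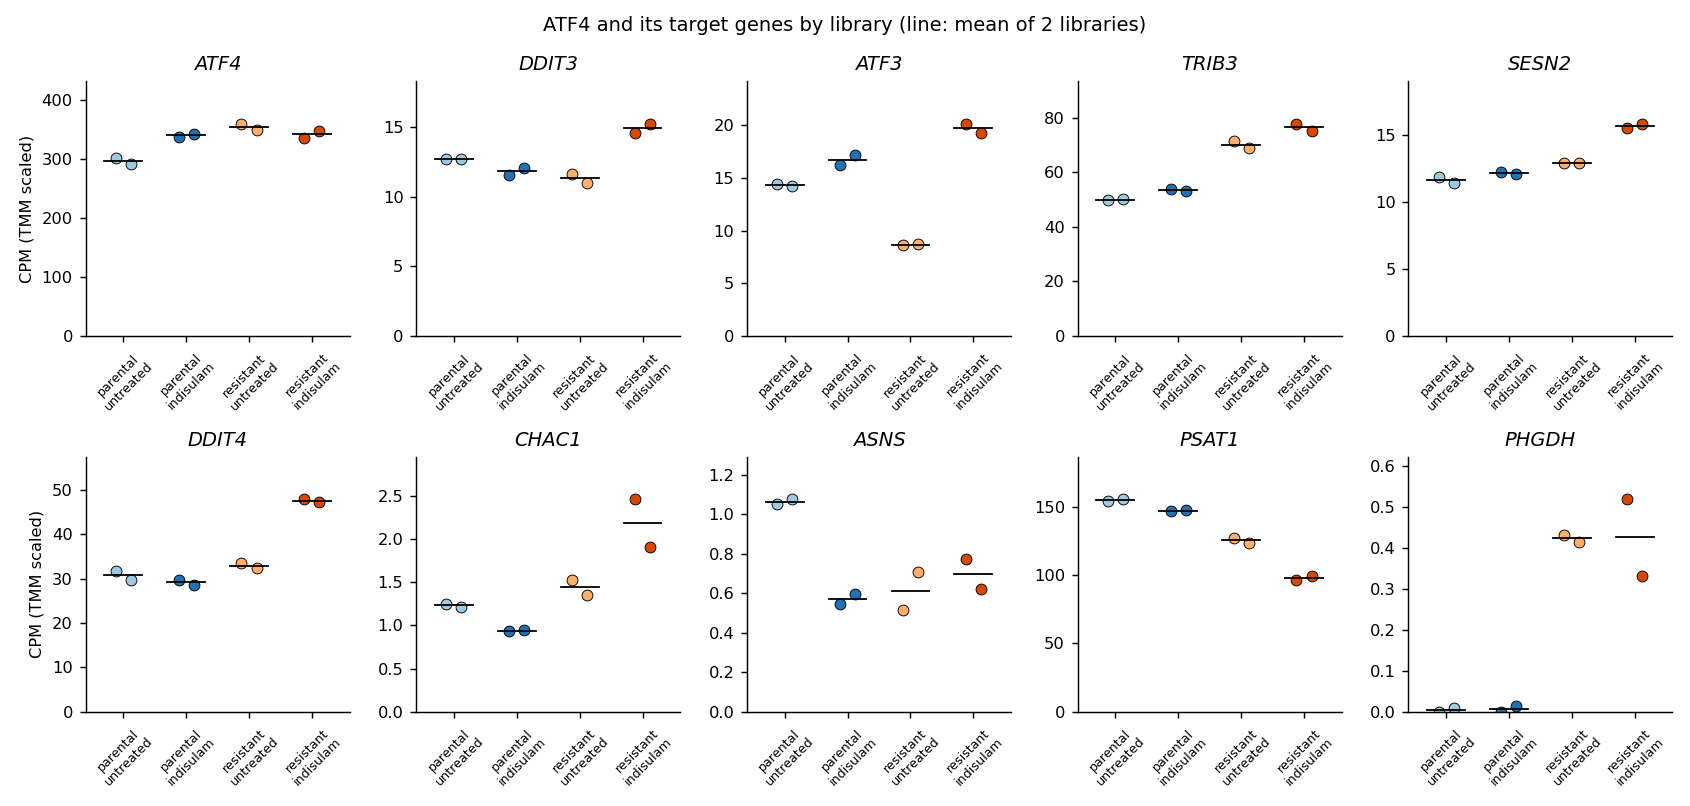
Level of ATF4 and 9 target genes in each of the 8 libraries, in TMM-scaled CPM on a linear axis that starts at 0 in each panel. Points are libraries and the line is the mean of the 2 libraries of a group. DDIT3, ATF3, TRIB3, SESN2, DDIT4 and CHAC1 were highest in the resistant indisulam libraries, and PSAT1 was lowest there. PHGDH had at most 1 read in any parental library.

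ATF4 mRNA (ENSG00000128272, chromosome 22, 39519695 to 39522683, plus strand) was abundant throughout and moved little. It was at 303 and 293 CPM in untreated and 339 and 343 CPM in treated parental libraries, and at 361 and 351 CPM off and 336 and 349 CPM on the drug in resistant ones. Only the parental untreated libraries lay below all others, and the libraries of both indisulam groups overlapped. ATF4 rose with the drug in parental cells, by 0.19 log2 units (SE 0.029, adjusted p 4.9e-06 in edgeR's quasi-likelihood test). In resistant cells the drug gave -0.05 log2 units (SE 0.029, adjusted p 0.12). Off the drug resistant cells were above parental ones by 0.26 log2 units (adjusted p 5.1e-08), and on it the lines differed by 0.01 (SE 0.029, adjusted p 0.82). With library totals alone the latter difference was 0.10 log2 units and was called, as it was at 0.09 among genes with a mean of at least 1 CPM. Without resistant untreated replicate 2 the fall in resistant cells, by 0.08 log2 units, was also called.

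The genes whose pattern over the 8 libraries was most like that of ATF4, among 9183 genes whose mean log2 CPM reached 3, were LYN, a tyrosine kinase of the SRC family (Pearson r 0.992), EIF2S2, the beta subunit of eIF2 (0.985), and ATXN10 (0.983). The 8 libraries fall into 4 groups, so these coefficients describe 4 group means more than 8 independent points. The target genes ranged from positive to negative. Their r to ATF4 was 0.698 for TRIB3, 0.654 for PHGDH, 0.510 for SESN2, 0.294 for DDIT4, 0.209 for CHAC1, -0.133 for DDIT3, -0.250 for ATF3, -0.535 for PSAT1 and -0.906 for ASNS. PHGDH had at most 1 read in any parental library, so its r describes the step between the lines.

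DDIT3 and ATF3 encode bZIP factors that act downstream of ATF4. DDIT3 (ENSG00000175197, chromosome 12, 57516588 to 57521737, minus strand) encodes CHOP, which promotes death under lasting stress. Its libraries stood at 12.7 and 12.7 CPM (untreated) and 11.6 and 12.1 CPM (treated) in the parental line, and at 11.6 and 11.0 CPM (holiday) and 14.6 and 15.2 CPM (on drug) in the resistant line. The resistant indisulam libraries were above all others. In resistant cells DDIT3 rose with the drug by 0.40 log2 units (SE 0.053, adjusted p 1.1e-06), whereas in parental cells the change was -0.10 (SE 0.051, adjusted p 0.093), which was called in 6 of the alternatives tried, for example at -0.17 log2 units with library totals alone. Resistant cells were lower off the drug, at -0.17 log2 units (adjusted p 0.0085), and higher on it, at 0.34 (adjusted p 4.2e-06). The lower level off the drug was not called with DESeq2 (adjusted p 0.085) or without resistant untreated replicate 2 (-0.12 log2 units). DDIT3 shares 24.3% of its canonical transcript with genes on the opposite strand, chiefly MARS1, with 94.7% of the reads that both genes had together, and 11.6% with a gene on the same strand. The strand setting of the counting was not given in the sources used here, so the values of DDIT3 are uncertain.

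ATF3 (ENSG00000162772, chromosome 1, 212565334 to 212620777, plus strand), an early stress factor, had the largest drug response among the members in resistant cells. It measured 14.5 and 14.3 CPM without and 16.2 and 17.2 CPM with indisulam in parental cells, against 8.65 and 8.68 CPM without and 20.1 and 19.3 CPM with it in resistant cells. No 2 groups overlapped, and the resistant line held both the lowest and the highest level. With the drug ATF3 rose by 1.18 log2 units in resistant cells (SE 0.053, adjusted p 9.8e-15), a fold of 2.27, and by 0.22 in parental cells (SE 0.047, adjusted p 4.1e-04). Against parental cells the resistant line was lower off the drug, at -0.73 log2 units (adjusted p 2.5e-11), and higher on it, at 0.24 (adjusted p 1.0e-04).

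TRIB3, SESN2 and DDIT4 restrain growth signalling. TRIB3 (ENSG00000101255, chromosome 20, 362835 to 397559, plus strand) encodes a pseudokinase that binds AKT and, in feedback, ATF4 itself. It lay at 49.9 and 50.2 CPM in untreated and 53.8 and 53.0 CPM in treated parental libraries, and at 71.5 and 68.8 CPM off and 77.9 and 75.0 CPM on the drug in resistant ones. Every resistant library was above every parental one. The line difference was 0.49 log2 units off the drug (SE 0.033, adjusted p 4.7e-12) and 0.52 on it (SE 0.033, adjusted p 1.5e-12). The drug responses were small, 0.09 log2 units in parental cells (adjusted p 0.018) and 0.12 in resistant cells (adjusted p 0.0031). The first was lost in 11 alternatives, among them each of the 4 that left out a parental library (0.07 to 0.10 log2 units) and library totals alone (0.03). The second was lost without resistant indisulam replicate 1 (0.09) or without resistant untreated replicate 2 (0.09).

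SESN2 (ENSG00000130766, chromosome 1, 28259518 to 28282491, plus strand) encodes a leucine sensor that inhibits mTORC1. It was at 11.8 and 11.4 CPM (untreated) and 12.2 and 12.1 CPM (treated) in the parental line, and at 12.9 and 12.9 CPM (holiday) and 15.5 and 15.8 CPM (on drug) in the resistant line. The levels of the groups did not overlap, and the resistant indisulam libraries stood highest. SESN2 rose with the drug in resistant cells by 0.28 log2 units (SE 0.050, adjusted p 4.6e-05). In parental cells the change was 0.06 (SE 0.050, adjusted p 0.30), and -0.0044 with library totals alone. The resistant line exceeded the parental one by 0.37 log2 units under treatment (adjusted p 5.1e-07) and by 0.15 on the holiday (adjusted p 0.013), a call that was lost with DESeq2 (0.16 log2 units), without parental untreated replicate 2 (0.12) and without resistant untreated replicate 1 (0.15).

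DDIT4 (ENSG00000168209, chromosome 10, 72273919 to 72276036, plus strand) encodes REDD1, another inhibitor of mTORC1. Its libraries stood at 31.7 and 29.7 CPM without and 29.7 and 28.7 CPM with indisulam in parental cells, against 33.5 and 32.4 CPM without and 47.9 and 47.2 CPM with it in resistant cells. The last 2 libraries stood apart from all others, which lay within a narrow range. DDIT4 rose with the drug in resistant cells by 0.53 log2 units (SE 0.039, adjusted p 8.1e-11), a fold of 1.44, and was higher than in treated parental cells by 0.70 log2 units (SE 0.039, adjusted p 1.0e-13). In parental cells the drug gave -0.07 log2 units (SE 0.040, adjusted p 0.11), which was called in 8 alternatives, among them without parental indisulam replicate 1 and without parental untreated replicate 2 (-0.12 each). The lines differed off the drug by 0.10 log2 units (adjusted p 0.033), a call lost in 8 alternatives, among them without parental untreated replicate 2 (0.05), without resistant untreated replicate 1 (0.08) and without either resistant indisulam library (0.09 each).

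CHAC1, ASNS, PSAT1 and PHGDH act in metabolism. CHAC1 (ENSG00000128965, chromosome 15, 40952962 to 40956512, plus strand) encodes an enzyme that breaks down glutathione. With 70 to 184 reads per library, it was at 1.25 and 1.22 CPM in untreated and 0.934 and 0.943 CPM in treated parental libraries, and at 1.53 and 1.36 CPM off and 2.46 and 1.91 CPM on the drug in resistant ones. The parental indisulam libraries were lowest and the resistant indisulam libraries highest. CHAC1 rose with the drug in resistant cells by 0.58 log2 units (SE 0.14, adjusted p 0.0016). In parental cells it fell by 0.40 log2 units (SE 0.16, adjusted p 0.038), a call that was lost with DESeq2 (adjusted p 0.16) and without any 1 of the 4 parental libraries (-0.42 to -0.37 log2 units). On the drug CHAC1 was 2.30-fold higher in resistant than in parental cells (log2 fold change 1.20, SE 0.15, adjusted p 2.2e-07). Off the drug the difference was 0.23 log2 units (SE 0.15, adjusted p 0.20).

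ASNS, asparagine synthetase (ENSG00000070669, chromosome 7, 97851677 to 97872542, minus strand), had only 38 to 115 reads per library. Of the 2385 bases of its canonical transcript, 2374 (99.5%) are shared on the same strand with a long noncoding RNA (ENSG00000284707), which had 254 reads over the 8 libraries against 513 for ASNS, and only 11 bases are not shared. The count files keep a line of ambiguous reads apart. The values of ASNS are therefore uncertain as a measure of its mRNA. It lay at 1.05 and 1.08 CPM (untreated) and 0.547 and 0.594 CPM (treated) in the parental line, and at 0.513 and 0.708 CPM (holiday) and 0.771 and 0.624 CPM (on drug) in the resistant line. The parental untreated libraries were above all others, and the libraries of the 2 resistant groups overlapped. As counted, ASNS fell with the drug in parental cells by 0.90 log2 units (SE 0.18, adjusted p 1.9e-04) and was lower in resistant than in parental cells off the drug, at -0.81 (adjusted p 5.6e-04). The drug response in resistant cells was 0.18 (SE 0.21, adjusted p 0.50) and turned to -0.04 without resistant untreated replicate 1.

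PSAT1 (ENSG00000135069, chromosome 9, 78297125 to 78330093, plus strand) and PHGDH catalyse consecutive steps of serine synthesis. PSAT1 was at 154 and 156 CPM without and 147 and 148 CPM with indisulam in parental cells, against 127 and 124 CPM without and 96.4 and 99.1 CPM with it in resistant cells. No groups overlapped, and the resistant indisulam libraries were lowest, where DDIT3, ATF3, TRIB3, SESN2, DDIT4 and CHAC1 were highest. With the drug PSAT1 fell by 0.36 log2 units in resistant cells (SE 0.029, adjusted p 4.3e-10). In parental cells it fell by 0.07 (SE 0.028, adjusted p 0.033), a call lost in 7 alternatives, among them without parental indisulam replicate 1 (-0.09 log2 units) and without either parental untreated library (-0.08 and -0.06). Against parental cells the log2 fold change of the resistant line was -0.30 during the holiday (adjusted p 2.3e-09) and -0.59 under treatment (adjusted p 1.0e-14).

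PHGDH (ENSG00000092621, chromosome 1, 119648411 to 119744218, plus strand), the first enzyme of serine synthesis, was almost absent from parental libraries. It had 0 and 1 reads without and 0 and 1 with the drug in parental libraries, and 32 and 27 reads without and 35 and 32 with it in resistant ones, at most 0.519 CPM. It passed the filter on low counts through the resistant libraries only. Resistant exceeded parental cells by a ratio of 91.8 off the drug (95% counting interval 15.9 to 3687) and of 62.4 on it (10.8 to 2502), from a single parental read in each case. These intervals cover counting error only, since the reads carry no molecular identifiers. Since the gene was kept only through the group in which it is high, its difference between the lines is given as a description, with no test. A drug response was not detectable at this depth in either line (adjusted p 0.86 in parental and 0.91 in resistant cells), and its sign changed with single libraries.

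**Figure D2:**
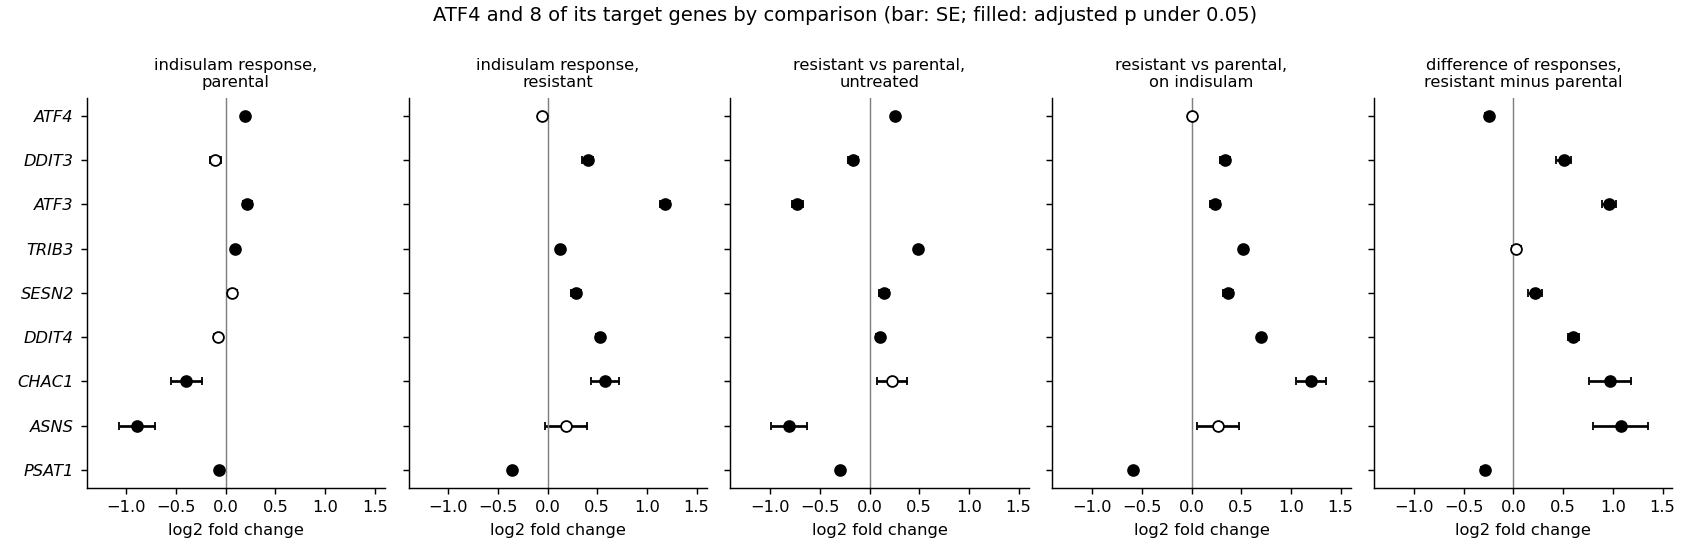
Log2 fold change of ATF4 and 8 target genes (rows) in the 5 comparisons (panels), with bars of 1 SE from edgeR and filled points where the adjusted p was under 0.05. PHGDH is not drawn, since its parental counts were 0 or 1. ATF3 stands at 1.18 for the drug response in resistant cells and at 0.22 in parental cells, and TRIB3 is the member with the smallest difference of responses that is drawn (0.03).

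To determine how the genes responded to a first exposure, treated parental cells were compared with untreated ones. ATF4, ATF3 and TRIB3 rose and ASNS, CHAC1 and PSAT1 fell, by at most 0.90 log2 units. The 6 called members compare with 58.2% of all 16661 genes tested (9690 genes, 5259 higher and 4431 lower), a share near that of the members. With library totals alone the calls were 2 higher and 5 lower among the members and 42.0% higher among all genes, against 54.3% with TMM. The median log2 fold change was -0.0048 over the 10 genes, -0.07 over the 9 without PHGDH and 0.01 over all genes. In 9 of the 10 genes the libraries of the 2 groups did not overlap, as in 78.8% of all genes. The count of members was 3 without parental untreated replicate 1.

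In resistant cells kept on the drug, compared with those on the holiday, most of the members rose. ATF3, CHAC1, DDIT4, DDIT3, SESN2 and TRIB3 were higher and PSAT1 was lower, while ATF4 itself, ASNS and PHGDH were not called. The 7 called members compare with 50.7% of all genes, and the 6 higher ones with 24.9% called higher. The median was 0.23 log2 units over the 10 genes, 0.28 over the 9 without PHGDH and 0.01 over all genes. With library totals alone the members' calls were again 6 higher and 1 lower, and 59.7% of the calls of all genes were higher, against 49.1% with TMM. In 8 members the libraries did not overlap, as in 73.0% of all genes.

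The lines were also compared without the drug, the resistant one after a week of withdrawal. TRIB3, ATF4, SESN2 and DDIT4 were higher and ASNS, ATF3, PSAT1 and DDIT3 were lower in resistant cells, so the targets did not move 1 way. Leaving out PHGDH, whose outcome was fixed by the filter, 8 of 9 members were called, which compares with 60.1% of all genes, and 4 were higher and 4 lower, against 30.3% and 29.9%. The median over the 9 was 0.10 log2 units against -0.02 over all genes. The libraries did not overlap in any of the 9 members, and did not in 79.5% of all genes.

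On the drug, CHAC1, DDIT4, TRIB3, SESN2, DDIT3 and ATF3 were higher in resistant than in parental cells and PSAT1 was lower. Again without PHGDH, 7 of 9 members were called, which compares with 69.5% of all genes, and 6 were higher, against 34.6%. The median over the 9 was 0.34 log2 units, against 0.00 over all genes. The libraries did not overlap in 8 of the 9 members and in 83.8% of all genes. With library totals alone ATF4 was called higher as well, and 59.7% of the calls of all genes were higher, against 49.8% with TMM. The parental cells had been exposed for 18 h and the resistant cells without interruption, so line and length of exposure cannot be told apart here.

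Finally, the drug responses of the lines were compared with each other. The response of ATF3, CHAC1, DDIT4, DDIT3, SESN2 and ASNS was higher in resistant than in parental cells, and that of ATF4 and PSAT1 was lower. The difference was 0.97 log2 units for ATF3 (SE 0.072, adjusted p 3.1e-10), 0.60 for DDIT4 (SE 0.056, adjusted p 9.4e-09), 0.50 for DDIT3 (SE 0.074, adjusted p 5.8e-06) and 0.97 for CHAC1 (SE 0.21, adjusted p 6.0e-04). For TRIB3 it was 0.03 (SE 0.047, adjusted p 0.65), with 0.14 and a call under library totals alone. The 8 called members compare with 50.1% of all genes, and the 6 higher ones with 22.7%. The median was 0.36 log2 units, against 0.01 over all genes. Single-library responses were formed by pairing libraries of the same number, which the labels do not state to be pairs. So formed, the responses of the lines did not overlap in 9 members, as in 74.6% of all genes. TRIB3, with a difference of 0.03, is among these 9. Library totals alone moved the median of all genes in this comparison by 0.12 log2 units and the share of higher calls from 45.2% to 65.8%. Among the members they gave 9 calls, 7 higher and 2 lower. The difference of SESN2 (0.22, adjusted p 0.012) was lost with DESeq2 (0.21) and without parental untreated replicate 1 (0.19).

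This comparison moved with the level of expression over all genes, as did each drug response and the lines on the drug. The members are therefore best read against genes of their own level. Of genes at 10 CPM and over, which ATF4, DDIT3, ATF3, TRIB3, SESN2, DDIT4 and PSAT1 are on average, 18.7% were called higher and 46.8% lower in the difference of responses, with a median of -0.11 log2 units. Of genes at 1 to 10 CPM, as CHAC1 is, 35.1% were called higher and 11.7% lower, with a median of 0.17. Of genes under 1 CPM, as ASNS and PHGDH are, 21.3% were called higher and 1.61% lower, with a median of 0.51. For the drug in parental cells, 5.26% of genes under 1 CPM were called higher and 23.5% lower, with a median of -0.26. At 1 to 10 CPM these values were 17.3%, 36.5% and -0.11. For the drug in resistant cells, 29.4% of genes at 1 to 10 CPM were called higher and 20.3% lower. Between the lines on the drug, 46.8% of genes at 1 to 10 CPM were called higher and 25.4% lower, with a median of 0.18. The part of these shifts in the values of CHAC1 and ASNS was not tested.

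The wider response was described with 77 other genes in 7 lists, of which 70 passed the filter on low counts and 7 (NUPR1, ALDH1L2, SLC1A4, SLC43A1, FGF21, ADM2 and INHBE) had at most 21 reads in a library. With the drug 52 of the 70 were called in parental cells, 32 higher and 20 lower (58.2% of all genes, 31.6% higher and 26.6% lower), and 57 in resistant cells, 16 higher and 41 lower (50.7% of all genes, 24.9% higher and 25.8% lower). Most list genes were at 10 CPM and over, where 50.5% of genes were called higher and 24.6% lower in parental cells, and 26.5% higher and 38.1% lower in resistant cells. Between the lines 53 were called off the drug, 35 of them higher in resistant cells (60.1% of all genes called, 30.3% higher), and 57 on it, 24 of them higher (69.5% and 34.6%). In the difference of responses 50 were called, 13 higher and 37 lower (50.1% of all genes, 22.7% higher and 27.5% lower). Of genes at 10 CPM and over, 18.7% were called higher and 46.8% lower in the difference. Between the lines, 37.1% of these genes were called higher and 34.5% lower off the drug, and 29.6% and 52.3% on it. With library totals alone the calls were 25 higher and 27 lower for the drug in parental cells, 32 and 26 for the lines on the drug, and 22 and 27 for the difference.

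**Figure D3:**
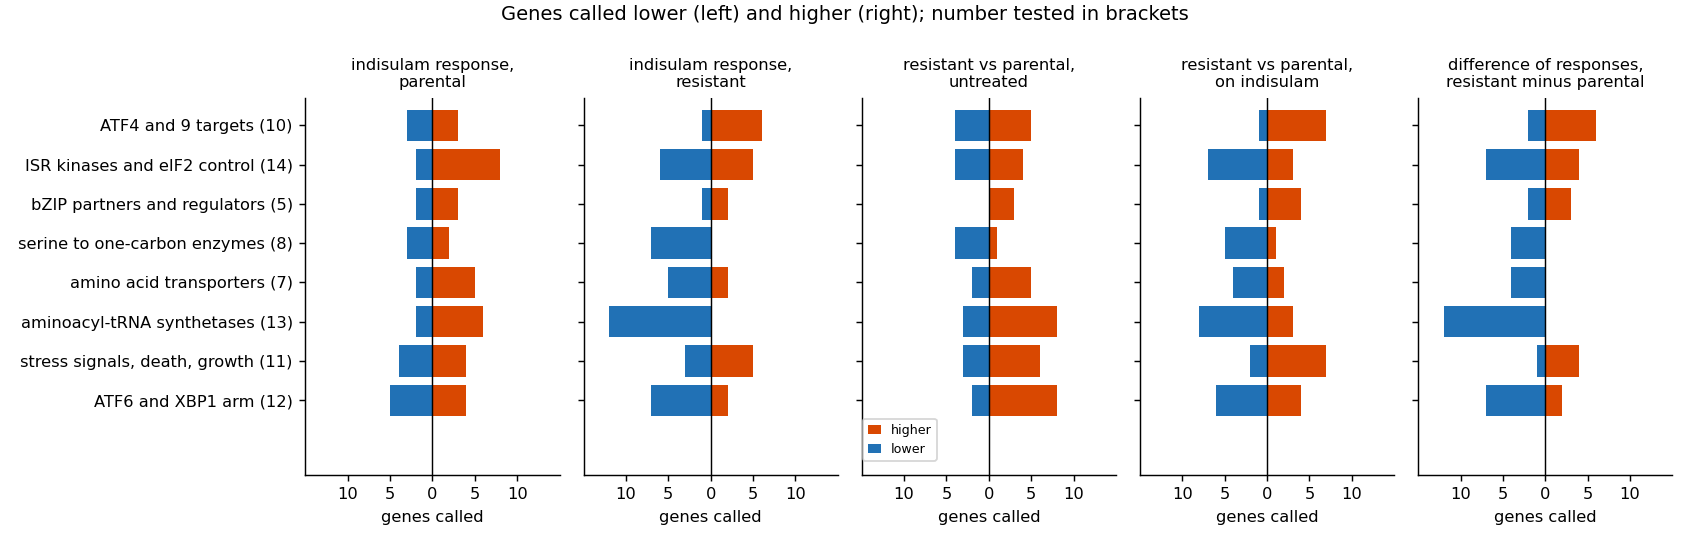
Number of genes called lower (blue, to the left) and higher (orange, to the right) among ATF4 and its 9 targets and among 7 lists of genes of the wider response, in the 5 comparisons; brackets give the number tested, PHGDH included. With the drug in resistant cells 6 of the 10 members were called higher, against 24.9% of all genes. Of the 13 genes of tRNA charging 12 were called lower, against 38.1% of genes at 10 CPM and over. Between the lines the outcome of PHGDH was fixed by the filter.

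The genes of tRNA charging, which load amino acids onto tRNA and are known ATF4 targets, were lower on the drug in resistant cells. Of 12 aminoacyl-tRNA synthetases and the tRNA exporter XPOT, 12 were called lower and 0 higher with the drug in resistant cells (median -0.22 log2 units), SARS1 being the exception at 0.04. At an expression of 10 CPM and over, 38.1% of genes were called lower in this comparison. EPRS1, which charges tRNAs for glutamate and proline, went from 353 and 341 CPM in resistant untreated to 233 and 244 in resistant indisulam libraries, a fall by 0.54 log2 units (SE 0.030, adjusted p 5.5e-13). IARS1, the isoleucine enzyme, was at 609 and 615 CPM in untreated and 608 and 625 CPM in treated parental libraries, and at 426 and 417 CPM off and 332 and 337 CPM on the drug in resistant ones. It fell with the drug by 0.33 log2 units in resistant cells and had 0.01 in parental cells (adjusted p 0.74). In the difference of responses 12 of the 13 were called lower and 0 higher (median -0.34), against 46.8% of genes at 10 CPM and over called lower, CARS1 being the exception at -0.07, and 8 were with library totals alone. In resistant cells library totals alone gave 10 lower and 1 higher. In parental cells, where 50.5% of genes at 10 CPM and over were called higher, 6 rose and 2 fell (MARS1 at -0.22 and LARS1 at -0.07), and YARS1 had the largest rise, 0.31 log2 units. Off the drug 8 were higher and 3 lower in resistant than in parental cells (30.3% and 29.9% of all genes), with TARS1 at 0.47 and IARS1 at -0.54.

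The list of enzymes of serine, glycine, proline and one-carbon metabolism is the one PSAT1 and PHGDH belong to by function. Its genes were mostly lower on the drug in resistant cells, as PSAT1 was. With the drug in resistant cells 7 of 8 were called lower and 0 higher (median -0.24), against 25.8% of all genes and 38.1% of those at 10 CPM and over called lower, and CTH had 0.28 log2 units (not called). PSPH, which takes the last step of serine synthesis, was at 34.1 and 32.2 CPM (untreated) and 35.3 and 36.3 CPM (treated) in the parental line, and at 25.9 and 26.3 CPM (holiday) and 18.5 and 18.5 CPM (on drug) in the resistant line. It fell with the drug in resistant cells by 0.49 log2 units (SE 0.043, adjusted p 1.6e-09), rose in parental cells by 0.11 (adjusted p 0.015) and was lower in resistant than in parental cells on the drug, at -0.95 (adjusted p 1.0e-15). In resistant cells SHMT2, a mitochondrial serine to glycine enzyme, fell by 0.33, and MTHFD2, a mitochondrial folate enzyme, fell by 0.27. MTHFD2 shares 36.8% of its canonical transcript with a gene on the opposite strand. In parental cells 2 of the 8 rose and 3 fell, against 31.6% and 26.6% of all genes and 50.5% and 24.6% of those at 10 CPM and over. The difference of responses was called lower in 4 and higher in 0, against 27.5% and 22.7% of all genes. At 10 CPM and over, 46.8% of genes were called lower and 18.7% higher in the difference.

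Among the 7 amino acid transporters tested, which carry amino acids across the plasma membrane, 5 fell and 2 rose with the drug in resistant cells (25.8% and 24.9% of all genes, and 38.1% and 26.5% of those at 10 CPM and over). In parental cells 5 rose and 2 fell (31.6% and 26.6% of all genes, and 50.5% and 24.6% of those at 10 CPM and over). SLC7A5, the large neutral amino acid carrier, was at 253 and 255 CPM without and 299 and 283 CPM with indisulam in parental cells, against 398 and 415 CPM without and 321 and 309 CPM with it in resistant cells. It rose with the drug by 0.20 log2 units in parental cells and fell by 0.37 in resistant cells, a difference of -0.56 (SE 0.044, adjusted p 8.2e-10), and off the drug it was higher in resistant cells by 0.68. Its partner chain SLC3A2 rose in both lines, by 0.58 in parental and 0.28 in resistant cells. SLC7A11, the cystine carrier, fell in both, by 0.31 and 0.39. The difference of responses was called lower in 4 of 7 and higher in 0, against 27.5% and 22.7% of all genes. Of genes at 10 CPM and over, 46.8% were called lower and 18.7% higher.

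**Figure D4:**
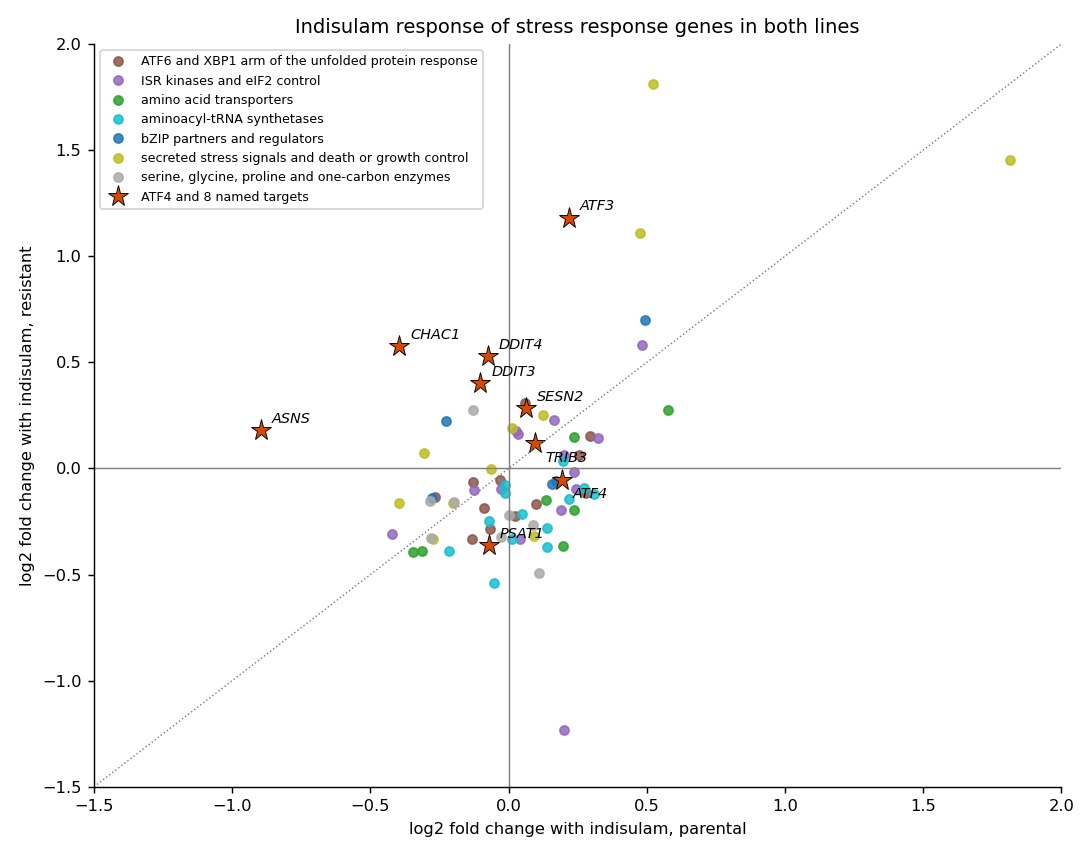
Log2 fold change with indisulam in parental cells (horizontal axis) and in resistant cells (vertical axis) for ATF4 and 8 targets (stars) and for 70 genes of the wider response (points, coloured by list); the dotted line marks equal responses, and PHGDH is not drawn. ATF3, CHAC1, DDIT4 and DDIT3 lie above the line, and most genes of tRNA charging lie below it. The point farthest right is STC2, at 0.01 to 0.33 CPM, and the lowest is EIF2AK2, at -1.23 in resistant cells.

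Of 14 genes for eIF2 kinases and eIF2 control, 8 rose and 2 fell with the drug in parental cells (50.5% and 24.6% of genes at 10 CPM and over), and 5 rose and 6 fell in resistant cells (26.5% and 38.1%). PPP1R15A encodes GADD34, the ATF4-induced subunit that returns eIF2 to its unphosphorylated form. It was at 167 and 169 CPM in untreated and 236 and 233 CPM in treated parental libraries, and at 125 and 126 CPM off and 190 and 186 CPM on the drug in resistant ones. It rose by similar steps in both lines, by 0.48 and 0.58 log2 units, with a difference of 0.10 that was called. EIF2AK2, which encodes PKR and is also induced by interferon, was at 123 and 125 CPM (untreated) and 146 and 139 CPM (treated) in the parental line, and at 342 and 340 CPM (holiday) and 144 and 147 CPM (on drug) in the resistant line. The resistant untreated libraries were far above and the parental untreated libraries below all others. With the drug EIF2AK2 fell in resistant cells by 1.23 log2 units (SE 0.029, adjusted p 3.5e-20) and rose in parental cells by 0.20 (SE 0.029, adjusted p 3.0e-06). EIF2AK4, which encodes GCN2, the sensor of uncharged tRNA, was above its parental level in resistant cells, by 0.59 log2 units without and 0.51 with the drug. OMA1, the mitochondrial protease that relays damage to HRI, was lower in them by -0.47 and -0.81, and it shares 13.4% of its transcript with a gene on the same strand.

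Of 5 tested bZIP partners and regulators, CEBPB, a dimer partner of ATF4, exceeded its parental level in resistant cells, by 1.14 log2 units during the holiday (SE 0.045, adjusted p 2.9e-16) and by 0.91 under treatment. It shares 12.6% of its transcript with a gene on the opposite strand. FOS rose with the drug in both lines, by 0.49 in parental and 0.70 in resistant cells. JUN fell by 0.23 in parental and rose by 0.22 in resistant cells. With the drug 3 of the 5 rose and 2 fell in parental cells, where 58.2% of all genes were called, and 2 rose and 1 fell in resistant cells, where 50.7% were.

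Of 11 tested genes for stress signals and for death or growth control, 4 rose and 4 fell with the drug in parental cells (31.6% and 26.6% of all genes), and 5 rose and 3 fell in resistant cells (24.9% and 25.8%). SESN3, a relative of SESN2, followed ATF3 in having its lowest level in resistant untreated cells. It measured 3.73 and 3.83 CPM without and 5.06 and 5.45 CPM with indisulam in parental cells, against 1.78 and 1.66 CPM without and 3.92 and 3.58 CPM with it in resistant cells, a rise by 1.11 log2 units with the drug in resistant cells (SE 0.11, adjusted p 8.7e-09) and by 0.48 in parental cells. VEGFA and CDKN1A, which encode a vessel growth factor and the cell cycle inhibitor p21, were higher in resistant cells, by 1.16 and 1.08 off the drug and by 1.20 and 1.21 on it.

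The ATF6 and XBP1 arm of the unfolded protein response, which acts in the endoplasmic reticulum beside PERK and ATF4, was set beside these lists. Of its 12 genes 4 rose and 5 fell with the drug in parental cells (50.5% and 24.6% of genes at 10 CPM and over), and 2 rose and 7 fell in resistant cells (26.5% and 38.1%). The largest response in resistant cells among the genes named for this list was that of SDF2L1, a chaperone component, which fell by 0.33 log2 units. ERN1, which encodes the sensor IRE1, rose there by 0.31 log2 units and was higher in resistant than in parental cells by 0.56 off the drug and 0.81 on it.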

How the data were processed

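RNA from Panc10.05 cells was sequenced in 8 libraries of 4 groups, which were assigned from the sample titles. The authors deposited raw read counts per Ensembl gene for each library. Per the labels and the study's methods, stranded polyadenylated libraries were read in pairs, trimmed with SeqPurge and aligned with HISAT2 2.2.1 to GRCh38, and the submitters' processing notes also name Picard and HTSeq. The strand setting and the annotation release are not given in the sources used here, so reads of overlapping genes were assigned by unknown rules. The 9 lines of each file that name no gene (duplicates, ambiguous reads and others), 37.9 to 44.9% of all reads, were left out. Symbols and overlaps came from GENCODE 44 on GRCh38, which matched 60419 of 60675 identifiers.

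Counts were filtered with filterByExpr, leaving 16661 genes, scaled with TMM and fitted with edgeR 4.0.16 (R 4.3.3) as 4 group means over all 8 libraries, with robust quasi-likelihood tests and 4 residual degrees of freedom. A gene was called at a Benjamini-Hochberg adjusted p under 0.05 over all genes tested. SE is the log2 fold change divided by the square root of F. DESeq2 1.42.0 was an alternative. An exact two-sided permutation of 2 libraries against 2 cannot go below p = 0.333 and was not used. CPM and RPKM were computed here from the counts with TMM sizes. Duplicate libraries were tested on their counts, and each pair differed by more than sampling noise. The code was tested on simulated counts.

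The members and the lists were chosen with earlier results of these data known. Beside the 10 members, the text names, for each list and comparison, genes among the 2 called ones with the largest change (mean log2 CPM 1 or more), and the 3 genes most like ATF4. Other list genes named (SARS1, CARS1, CTH, LARS1, STC2 and the untested ones) were chosen after their values were seen. Figures were drawn with matplotlib 3.10.9.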

Additional observations from a re-analysis of the deposited data

Results flagged for a closer look

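The drug response differed between resistant and parental cells, by the test of the difference itself (edgeR, adjusted p under 0.05), for 8 of the 10 genes, against 50.1% of all genes tested. The difference, resistant minus parental on the log2 scale, was 1.08 for ASNS, 0.97 for CHAC1, 0.97 for ATF3, 0.60 for DDIT4, 0.50 for DDIT3 and 0.22 for SESN2, and it was -0.25 for ATF4 and -0.29 for PSAT1. The lines also differed in the length of exposure. The values of ASNS and DDIT3 are uncertain because their transcripts overlap other genes, and ASNS and CHAC1 had 38 to 184 reads per library. Tested against a minimum of 0.5 log2 units, only the difference of ATF3 was called.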

How the results depend on the processing

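For single members, 731 values under the alternatives kept direction and call, 70 lost the call, 19 gained one and 9 changed sign. Tested against a minimum of 0.5 log2 units (glmTreat), members called numbered 0 and 1 for the drug in parental and resistant cells. They numbered 2 for the lines off the drug, 4 on it and 1 for the difference of responses. The main test called 6, 7, 9, 8 and 8. PHGDH is counted here in both comparisons of the lines, where the filter fixed its outcome, so its calls there test nothing. Without it the main test called 8 members off the drug and 7 on it. Besides PHGDH, glmTreat called ATF3 off the drug, and CHAC1, DDIT4 and PSAT1 on it. In the same order this test called 1, 5, 8, 10 and 2 genes of the wider lists and 1042, 879, 2582, 3509 and 908 of all genes. For the drug in parental cells, 3 members were called at an adjusted p under 0.01, and 3 to 8 when 1 library was left out. Leaving out 1 library gave 6 to 7, 7 to 9, 8 and 7 to 8 members in the other comparisons, with PHGDH again counted. The signs that changed were those of SESN2 with library totals alone (-0.0044) and ASNS without resistant untreated replicate 1 (-0.0425, and up to 0.41 without other libraries) for the drug response, of ATF4 on the drug between the lines without resistant indisulam replicate 2 (-0.0139, and up to 0.0413), and of PHGDH. The latter ran from -2.05 without parental indisulam replicate 2 to 2.39 in parental cells (-0.43 without parental untreated replicate 1), from -0.35 to 0.29 without resistant indisulam replicate 2 in resistant cells (0.0041 with library totals alone), and from -2.43 to 2.00 for the difference (0.38 without parental untreated replicate 1). None of these was called in edgeR's test, and the cause was not tested.

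Over all genes tested, same-numbered libraries did not deviate together (correlations of -0.058 to 0.0272 over 6 pairs of groups). Genes with few reads had equal weight in this check, so a batch shared among well-expressed genes was not tested. With the replicate number as a block, 6, 7, 9, 8 and 8 members were called, with PHGDH counted in both comparisons of the lines. So were 51, 57, 52, 57 and 51 genes of the lists and 9537, 8319, 9865, 11472 and 8206 of all genes. Depth limited ASNS, CHAC1 and PHGDH.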

Other observations

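GDF15, a secreted stress signal and known target of CHOP and ATF4, lay below the expression at which list genes were named, and is given here after its values were seen. It lay at 0.877 and 0.767 CPM in untreated and 1.20 and 1.16 CPM in treated parental libraries, and at 0.473 and 0.570 CPM off and 1.87 and 1.79 CPM on the drug in resistant ones. The groups did not overlap, and as for ATF3 the resistant line held both the lowest and the highest level. With the drug GDF15 rose by 1.81 log2 units in resistant and by 0.52 in parental cells. In resistant cells 18.7% of genes under 1 CPM were called higher and 6.16% lower, and 29.4% and 20.3% of those at 1 to 10 CPM. In parental cells these shares were 5.26% and 23.5%, and 17.3% and 36.5%. The part of this in the values of GDF15 was not tested.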
